A study of Rattus norvegicus with 12 samples.

Results

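The transcriptome of the rat urinary bladder at 28 days after complete spinal cord transection was set against that at 7 days. The members were chosen from the sample titles: 3 day-28 libraries and 3 day-7 libraries, 6 of the 12 libraries of the series, compared over the 40154 genes listed. The animals, female rats of the outbred Wistar strain, were aged 10 to 12 weeks per the labels, which do not say if this is the age at surgery or at tissue collection; if at surgery, the day-28 rats were older than the day-7 rats when sampled. In both groups the cord had been severed completely with a scalpel, with the dura kept whole, at thoracic segment 10 per the sample labels and at segments 9 to 10 per the series' design text. A further 3 libraries from normal control rats of the same strain and labelled age give a reference level and were not tested against either day here, but they and the 3 other libraries of the series entered the model that sets the spread behind each p. Per the labels, RNA depleted of ribosomal RNA was sequenced as single reads of 50 bases. The labels do not say whether the replicates of a day came from separate rats, so p-values measure the spread between these libraries, which may be technical.

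The bladder wall consists of an inner epithelium, the urothelium, a layer of connective tissue beneath it and a coat of smooth muscle, the detrusor. Loss of the descending input from the brain first leaves the bladder unable to empty, and reflex voiding that is poorly coordinated with the urethral sphincter returns later, so that the organ is distended early and enlarges. A distended or injured wall is known to pass through phases of cell division, deposition of collagens and other matrix proteins, and immune cell entry, and a bladder that empties badly is prone to infection.

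Library depth was similar, with 28.8 to 30.7 M counts at day 7 and 28.8 to 29.5 M at day 28. The tissue label was borne out by its markers: summed CPM (counts divided by the TMM-adjusted size of each library) of 28 smooth muscle genes were 36685 to 58637 at day 7 and 16899 to 35419 at day 28, and those of 25 urothelial genes 7903 to 9718 and 9953 to 13686. Within a day, libraries differed by more than sampling noise. Day-7 replicate 3 stood apart in haemoglobin transcripts, with 2.89% of counts against 0.156% and 0.370% in replicates 1 and 2 and 0.0704% to 0.0966% at day 28. Day-28 replicate 3 stood apart in mucosal defence genes (summed 877, 1518 and 5397 CPM in replicates 1, 2 and 3) and held the lowest summed collagen and smooth muscle levels of the 6. Mitochondrially encoded transcripts made up 4.29% to 4.86% of counts at day 7 and 5.99% to 6.97% at day 28, without overlap, and 6.16% to 7.07% in controls. The part of that shift in the results below was not tested.

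Of 17687 genes tested, 1395 were higher at day 28 (7.89%) and 1915 were lower (10.8%), by the quasi-likelihood test of edgeR at an adjusted p under 0.05. The change was at least 2-fold for 590 of the higher and 1001 of the lower genes. The median log2 fold change over all genes tested was 0.0083. The day-28 libraries all lay above the controls for 20.9% of the genes tested and all below them for 19.6%. Of the 1915 genes lower at day 28 than at day 7, 1000 overlapped the controls at day 28, 291 still lay above them and 624 lay below. Of the 1395 higher genes, 833 lay above all controls at day 28, 498 overlapped them and 64 lay below. Fewer cells of a type and less RNA per cell cannot be told apart in whole tissue, here or in the groups below. A model of the 2 days alone called 2260 genes. The number called rested in part on 3 libraries: it was 1954 without day-7 replicate 2, 2163 without day-7 replicate 3 and 2112 without day-28 replicate 3.

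**Figure D1:**
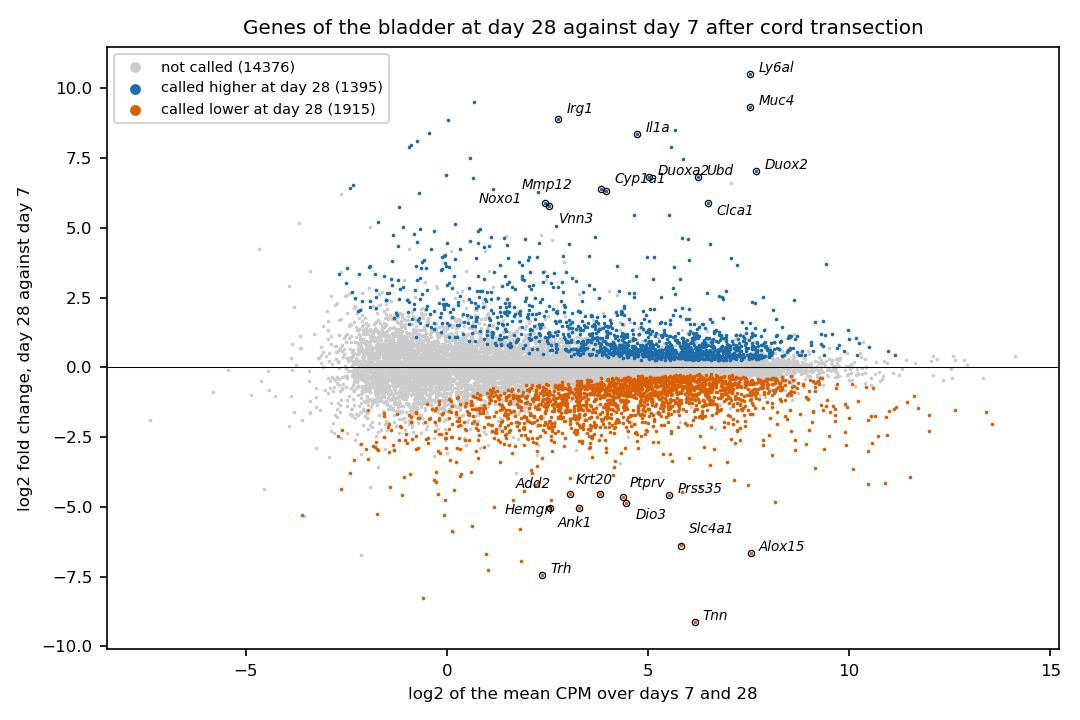
Log2 fold change at day 28 against day 7 (vertical axis) against the log2 of the mean CPM over both days (horizontal axis) for each gene tested; 1 gene with no count at either day is not drawn. Blue points are the 1395 genes called higher at day 28 and orange points the 1915 called lower, and those with the largest changes by the naming rule that the text describes are circled and named.

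The genes that fell most from day 7 to day 28 included a repair matrix protein, a hormone precursor and a keratin of the surface urothelium. Tnn (tenascin-N, an extracellular matrix glycoprotein; chromosome 13, 77829384 to 77896831 on rn6) measured 20.3, 248 and 159 CPM at day 7 and 0.200, 0.233 and 0.321 CPM at day 28. No day-28 library came near the lowest day-7 library, day-7 replicate 1 was far below its 2 partners, and the day-28 values overlapped the controls (0.104, 0.109 and 0.214 CPM). Its log2 fold change was −9.12 ± 0.94, adjusted p = 0.000256. Krt20 (chromosome 10, 87342514 to 87351045), a keratin of the umbrella cells that face the urine, measured 18.3, 24.1 and 38.6 CPM at day 7 and 0.867, 1.73 and 0.835 CPM at day 28. Here day 7 lay below the controls (78.9, 63.2 and 60.2 CPM) and day 28 lower again (−4.56 ± 0.36, adjusted p = 0.000116).

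The falls also held genes known from the thyroid axis, the hypothalamic peptide precursor Trh and the hormone-inactivating deiodinase Dio3. Trh (chromosome 4, 124110716 to 124113242) held 864 counts over the 3 day-7 libraries and 5 over the day-28 libraries, all 5 in replicate 2. The day-7 level was 188 times that of day 28 (95% interval 80.4 to 581, counting error only, here and below). The adjusted p was 0.00137, and day-7 replicate 1 (2.53, 13.7 and 14.5 CPM over the 3 replicates) was again the lowest. Dio3 (chromosome 6, 134627278 to 134629139) measured 9.90, 57.4 and 59.0 CPM at day 7 and 0.834, 1.86 and 1.67 CPM at day 28, with every day-7 library above every day-28 library and day 28 overlapping the controls (−4.85 ± 0.67, adjusted p = 0.00106). Ptprv, a receptor-type tyrosine phosphatase, fell by the same order (40.2 ± 13.6 to 1.59 ± 0.992 CPM, mean ± SD, n = 3 per day; −4.66 ± 0.52, adjusted p = 0.000375). Prss35, a serine protease family member, fell from 88.4 ± 44.7 to 3.68 ± 3.82 CPM (−4.59 ± 0.84, adjusted p = 0.00430).

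A further set of large falls followed the haemoglobin content of the libraries. Slc4a1, the anion exchanger of the red cell membrane, measured 5.94, 27.3 and 299 CPM at day 7 and 0.901, 0.966 and 2.09 CPM at day 28. The high day-7 value was that of replicate 3, the library with 2.89% haemoglobin transcripts. Its log2 fold change was −6.38 ± 1.35, and −3.64 without that library. Alox15, a lipoxygenase, measured 8.84, 105 and 1001 CPM at day 7 and 1.90, 4.93 and 4.14 CPM at day 28 (−6.66 ± 1.34, and −3.95 without day-7 replicate 3). The red cell membrane genes Ank1 (−5.05 ± 1.25) and Add2 (−4.53 ± 1.21) and the erythroid nuclear protein gene Hemgn (−5.04 ± 1.32) stood at −2.57, −2.02 and −2.67 without day-7 replicate 3 and were then no longer called. Leaving out day-28 replicate 1 or 3 also ended these 3 calls, and leaving out day-28 replicate 2 ended that of Ank1. An antisense gene in the interval of Ank1 holds more counts than Ank1 itself, and the sources used here do not say if reads were assigned by strand. Of 10 erythroid genes tested, 10 were lower at day 28 and 0 higher (median −4.19), and the count of lower genes was 3 without day-7 replicate 3, 4 without day-28 replicate 1 and 3 without day-28 replicate 3. Alas2, the erythroid enzyme that starts haem synthesis, measured 12.7, 32.7 and 285 CPM at day 7 and 4.64, 5.26 and 4.85 CPM at day 28 (−4.48 ± 1.07, adjusted p = 0.0146); it stood at −2.20 without day-7 replicate 3, where its call was lost, as it was without day-28 replicate 3. Haemoglobin alpha (Hba-a1, whose near-identical copies make its counts uncertain; −4.20 ± 0.87) and the membrane protein gene Epb42 (−3.69 ± 0.78) stood at −2.34 and −1.94 without day-7 replicate 3. The part of blood in these falls was not tested.

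The genes that rose most encoded surface and secreted products of epithelia, an oxidase system and inflammatory mediators. Ly6al (a member of the Ly6 family of membrane-anchored surface proteins; chromosome 7, 116557519 to 116561058) measured 0.293, 0.174 and 0.290 CPM at day 7 and 307, 90.1 and 711 CPM at day 28. Its day-7 level overlapped that of controls (0.209, 0.656 and 0.107 CPM) and its lowest day-28 library was more than 100-fold above all of them (10.50 ± 0.96, adjusted p = 0.000187). Muc4, a membrane mucin (chromosome 11, 71242973 to 71285217), measured 0.697, 0.382 and 0.652 CPM at day 7 and 1.67, 19.2 and 1089 CPM at day 28. The 3 day-28 libraries lay above day 7 but spanned a factor of more than 600, and the log2 fold change of 9.32 ± 2.02 (adjusted p = 0.00924) was 4.17 without day-28 replicate 3. The call of Muc4 was lost in a model of the 2 days alone (adjusted p = 0.0531). Clca1, a secreted protein of mucus-producing cells, measured 1.17, 2.78 and 4.92 CPM at day 7 and 27.1, 54.1 and 448 CPM at day 28; its call (5.90 ± 1.83, adjusted p = 0.0438) was lost when any one of day-7 replicates 1, 2 or 3 or day-28 replicates 2 or 3 was left out, and its value was 3.78 without day-28 replicate 3.

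The hydrogen peroxide-producing oxidase Duox2 (chromosome 3, 114218187 to 114237808) measured 3.04, 3.37 and 2.97 CPM at day 7 and 109.6, 213 and 899.6 CPM at day 28, with day 7 inside the range of controls (2.54, 4.26 and 2.82 CPM) and every day-28 library more than 30-fold above day 7 (7.02 ± 0.85, adjusted p = 0.000551). Its maturation factor Duoxa2, which lies antisense to Duox2 and overlaps it, measured 0.953, 0.348 and 0.398 CPM at day 7 and 19, 39.0 and 136 CPM at day 28 (6.83 ± 1.01, adjusted p = 0.00146). Reads of this overlapping pair cannot be told apart where strand was not used. Noxo1, which organises the related oxidase of the gut epithelium, rose from 0.177 ± 0.138 to 10.7 ± 8.15 CPM (5.88 ± 1.06, adjusted p = 0.00399). Il1a, an alarmin cytokine released by epithelial and myeloid cells, measured 0.147, 0.0348 and 0.290 CPM at day 7 and 35.6, 21.7 and 102 CPM at day 28 (8.37 ± 1.60, adjusted p = 0.00507). Its 3 day-28 libraries were all above 20 CPM and none of the 6 others reached 0.3 CPM. Ubd, a ubiquitin-like modifier induced by inflammatory cytokines, rose from 1.33 ± 0.513 to 149 ± 158 CPM (6.81 ± 0.81, adjusted p = 0.000528), and Vnn3, of the vanin family of pantetheinases, from 0.201 ± 0.0965 to 11.4 ± 9.44 CPM (5.78 ± 0.63, adjusted p = 0.000362). Irg1, the enzyme that makes itaconate in activated macrophages, held 2 counts at day 7 and 1256 at day 28, 576 times as much (95% interval 159 to 4760). Its day-28 libraries measured 0.600, 6.19 and 33.8 CPM, a spread that the counting interval leaves out. Irg1 lies antisense to the far more abundant Mycbp2 and is therefore uncertain, and its call (8.90 ± 2.1, adjusted p = 0.0137) was lost without day-7 replicate 2 or 3.

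Genes of mitosis fell almost without exception. Of 30 mitosis genes tested, 29 were lower at day 28 and 0 higher, with a median log2 fold change of −1.99. Their summed level was 1257, 1418 and 1339.7 CPM at day 7 and 195, 350.1 and 459.6 CPM at day 28, against 172, 114 and 103 CPM in controls. All 30 members lay above all controls at day 7, as did 23.6% of the genes tested. At day 28, 15 of the 30 still did, as did 20.9% of the genes tested. The exception was Kif23, a kinesin of the midzone of the spindle, at 43.4, 53.9 and 58.5 CPM at day 7 and 39.8, 40.4 and 65.5 CPM at day 28 (−0.10 ± 0.18, adjusted p = 0.754). Anln (anillin, which scaffolds the contractile ring; chromosome 8, 23336455 to 23397122) measured 201, 181 and 143 CPM at day 7 and 18.0, 29.7 and 21.6 CPM at day 28 and fell by the most in the list (−2.92 ± 0.23, adjusted p = 0.000130). Prc1, which bundles the microtubules of the midzone, measured 171, 118 and 107 CPM at day 7 and 16.8, 34.6 and 20.8 CPM at day 28 (−2.45 ± 0.28, adjusted p = 0.000406). Both days were separate for each of these genes, and day 28 stayed above the controls (14.2, 11.3 and 9.68 CPM for Anln, 16.1, 12.9 and 16.5 CPM for Prc1).

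The proliferation marker Mki67 (chromosome 1, 207993895 to 208020454) measured 151, 230.2 and 225 CPM at day 7 and 23.2, 49.7 and 78.3 CPM at day 28. The day-28 libraries were below every day-7 library and above every control library (17.2, 9.22 and 7.32 CPM), with a log2 fold change of −2.0 ± 0.43, adjusted p = 0.00892. The ubiquitin-conjugating enzyme Ube2c, which serves the anaphase-promoting complex, stood at −2.50 ± 0.32, and the transcription factor Foxm1, which drives genes of mitosis, at −1.65 ± 0.21 (adjusted p = 0.000681 and 0.000686). With each library left out in turn, 23 to 29 of the 30 remained lower. Of 30 DNA replication genes tested, 18 were lower and 0 higher (median −1.05). This count was 10 without day-7 replicate 2, 9 without day-7 replicate 3 and 10 without day-28 replicate 2. It was 12 without day-28 replicate 1, 22 without day-28 replicate 3 and 24 without day-7 replicate 1. E2f1, the factor that turns on genes of DNA synthesis, measured 14.5, 14.8 and 16.0 CPM at day 7 and 3.30, 5.16 and 4.59 CPM at day 28, all day-28 libraries being below day 7 and overlapping the controls (−1.79 ± 0.26, adjusted p = 0.00122). Rrm2, the regulatory subunit of ribonucleotide reductase, measured 46.9, 51.0 and 54.2 CPM at day 7 and 5.24, 9.32 and 14.8 CPM at day 28 (−2.37 ± 0.44, adjusted p = 0.00468). The replication helicase factor Cdc45 (−2.09 ± 0.39) and cyclin E (Ccne2, −2.08 ± 0.33) also fell; the antisense gene Ints8 overlaps Ccne2 and holds more counts, so Ccne2 is uncertain.

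Promoters of the mitosis genes are shown for the members with the smallest p that RefSeq lists. The 250 bases before the annotated start are from RefSeq on the build GRCr8, which is not the build of the counts, written 5′ to 3′ on the strand of the gene. Capitals mark TTTGAA, the core of the cell cycle homology region bound by repressor complexes of resting cells, and CCAAT, the box bound by NF-Y, on either strand. The windows are chr8:29197514-29197763 on the minus strand for Anln and chr1:143659231-143659480 on the plus strand for Prc1.
Anln: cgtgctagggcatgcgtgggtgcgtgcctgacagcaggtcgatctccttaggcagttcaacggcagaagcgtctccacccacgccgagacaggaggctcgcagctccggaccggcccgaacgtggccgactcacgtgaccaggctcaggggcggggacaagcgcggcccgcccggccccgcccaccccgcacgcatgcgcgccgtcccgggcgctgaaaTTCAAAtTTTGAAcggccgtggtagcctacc
Prc1: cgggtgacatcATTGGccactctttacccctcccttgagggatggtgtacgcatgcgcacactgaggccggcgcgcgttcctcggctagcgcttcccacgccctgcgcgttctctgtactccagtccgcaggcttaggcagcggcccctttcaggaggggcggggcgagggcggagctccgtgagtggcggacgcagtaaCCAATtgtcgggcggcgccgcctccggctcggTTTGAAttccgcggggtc
Anln has TTTGAA on both strands within 40 bases of the start, and Prc1 has TTTGAA once and CCAAT on both strands. In windows of 300 bases, 50 of them after the start, TTTGAA stood in 17 of 25 matched mitosis promoters (68.0%) and in 18.1% of the 27457 RefSeq promoters. CCAAT stood in 17 of 25 (68.0%) and in 37.7%. The E2F motif GCGGGAA stood in 10 of 23 matched replication promoters (43.5%) and in 4.47% of all. Both strands were searched, the motifs do not contain one another, and a match describes letters, not binding. The shares cover listed genes whatever their change between the days, and a link of the motifs to the falls was not tested.

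Collagens and the proteins that fold, bind and crosslink them fell from a day-7 level above the controls. Of 21 collagen genes tested, 18 were lower and 0 higher (median −1.62). Of 21 genes of collagen folding and crosslinking, 19 were lower and 0 higher (median −1.39). Of 21 repair matrix glycoproteins, 15 were lower and 0 higher (median −2.28). Summed collagen levels were 49554, 61043 and 57807 CPM at day 7, 15303, 22398 and 9628 CPM at day 28, and 28789.6, 22945 and 25912 CPM in controls. The day-28 sum thus lay below the controls in every library, though replicate 2 was close to the lowest control. By gene, 6 of the 21 collagens lay below all controls at day 28, 12 overlapped them and 3 lay above. Over all genes tested, 19.6% lay below all controls at day 28 and 20.9% above. Leaving out any 1 library left 17 to 18 lower collagens, 15 to 18 lower folding genes and 14 to 16 lower glycoproteins.

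Col1a1, the main chain of fibrillar type I collagen (chromosome 10, 82745801 to 82762790), measured 15550.0, 20306 and 21811 CPM at day 7 and 4637, 6677 and 2657 CPM at day 28. Every day-28 library was below every day-7 library and also below the controls (12347, 8249.8 and 10221 CPM), and the difference was −2.05 ± 0.32, adjusted p = 0.00191. Col3a1, the fibrillar collagen of compliant tissue, measured 14870.0, 18775 and 15420.0 CPM at day 7 and 4882, 7764 and 3339 CPM at day 28 (−1.62 ± 0.27, adjusted p = 0.00293) and likewise ended below its controls (10245, 8483 and 9780.3 CPM). The collagen with the smallest p was Col15a1, a collagen of basement membrane zones, at 27.5, 26.0 and 29.0 CPM at day 7 and 10.3, 11.6 and 8.86 CPM at day 28 (−1.43 ± 0.13, adjusted p = 0.000187); its 3 day-28 libraries lay below the controls too. Col5a1 (−2.32 ± 0.28), which starts fibrils, Col16a1 (−1.45 ± 0.18) and Col6a3 (−2.44 ± 0.29), of the beaded microfibrils, overlapped the controls at day 28. A same-strand gene overlaps Col6a3 and makes its counts uncertain.

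Loxl2, a lysyl oxidase-like enzyme that crosslinks collagen, measured 213, 212 and 266 CPM at day 7 and 39.9, 52.8 and 24 CPM at day 28 (−2.56 ± 0.27, adjusted p = 0.000260), against 46.6, 52.8 and 47.3 CPM in controls; day-28 replicates 1 and 3 lay below every control. Plod2, which hydroxylates lysines used in crosslinks, measured 142, 288 and 308 CPM at day 7 and 43.0, 50.3 and 19.9 CPM at day 28 (−2.71 ± 0.38, adjusted p = 0.00107). The prolyl hydroxylase P3h1 (−1.39 ± 0.19) and the collagen chaperone Fkbp10 (−1.74 ± 0.24) fell as well (adjusted p = 0.00104 for both). Periostin (Postn), a matricellular protein of repair and stretch, measured 1493, 1944 and 1661 CPM at day 7 and 247, 348 and 145 CPM at day 28 (−2.78 ± 0.28, adjusted p = 0.000238). Tenascin-C (Tnc) measured 1311, 1897 and 2913 CPM at day 7 and 256, 160.3 and 77.6 CPM at day 28 (−3.63 ± 0.43, adjusted p = 0.000528), and thrombospondin Thbs2 stood at −1.52 ± 0.19. Osteopontin (Spp1) measured 17.0, 31.3 and 34.5 CPM at day 7 and 5.24, 3.76 and 1.06 CPM at day 28; every day-28 library was below day 7 and above the controls (0.139, 0.0729 and 0.214 CPM; −3.04 ± 0.64, adjusted p = 0.00794).

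Of 16 elastic fibre genes tested, 12 were lower (75%) and 1 higher (6.25%), against 10.8% and 7.89% of all genes tested. The median was −1.26. The microfibril-associated Emilin1 measured 116, 112 and 119.9 CPM at day 7 and 46.0, 50.3 and 38.3 CPM at day 28 and overlapped the controls at day 28 (−1.37 ± 0.13, adjusted p = 0.000196). Efemp2, needed to assemble elastin and lysyl oxidase, stood at −1.24 ± 0.14, and the latent TGF-beta binding protein Ltbp1 at −1.13 ± 0.15. The one member that rose was Efemp1, a fibulin, at 147, 111 and 81.5 CPM at day 7 and 198, 218 and 149 CPM at day 28 (0.73 ± 0.22, adjusted p = 0.0378), a call not made without day-28 replicate 1 or 2 or day-7 replicate 2 or 3.

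**Figure D2:**
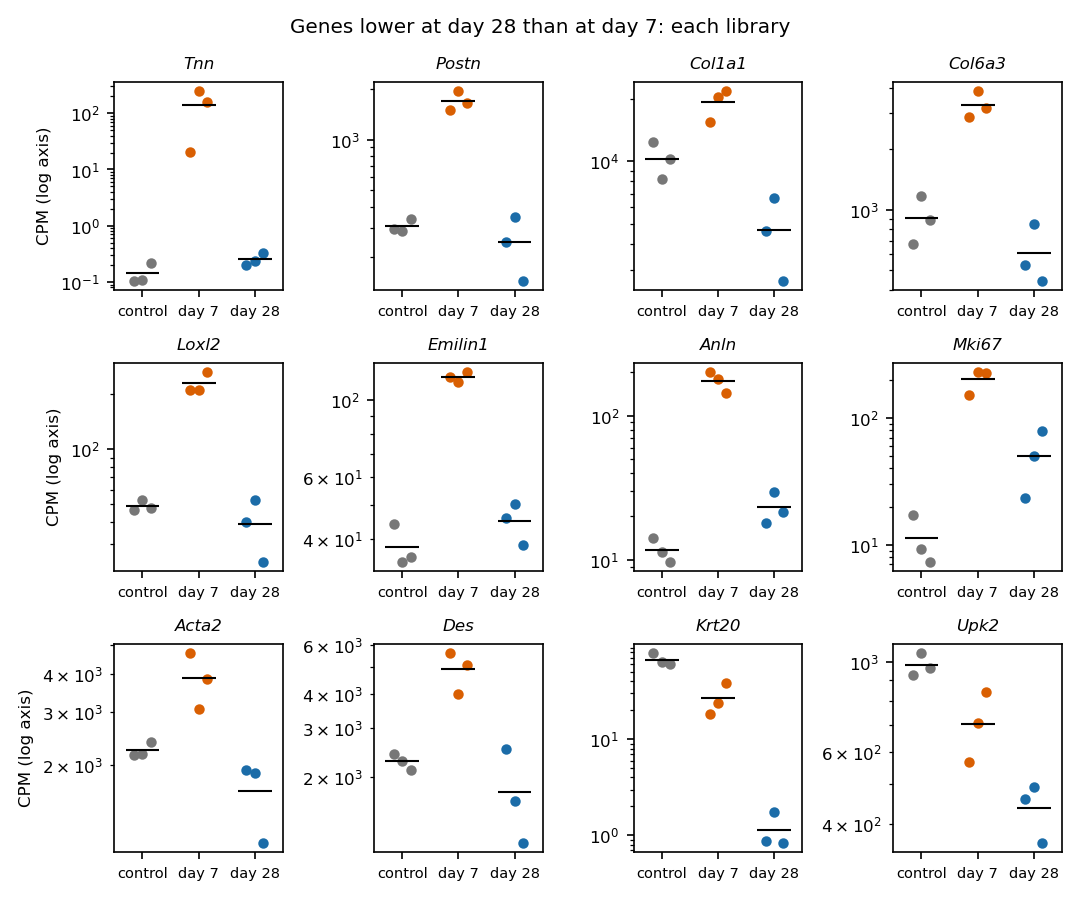
CPM on a log axis in each of the 3 libraries of control (grey), day 7 (orange) and day 28 (blue), with the group mean as a black line, for 12 genes lower at day 28 than at day 7. In each panel the 3 blue points lie below the 3 orange points; for Tnn, Postn, Loxl2 and Emilin1 their range overlaps that of the grey points, for Anln and Mki67 they stay above them, and for Krt20, Upk2, Col1a1 and Acta2 they lie below them.

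The metalloproteinases and their inhibitors split: 7 of 24 were higher and 7 lower (median −0.297). Both shares were 29.2%, against 7.89% higher and 10.8% lower over all genes tested. Without day-7 replicate 2 only 2 were higher, and without day-7 replicate 3 only 3. Macrophage elastase Mmp12 measured 0.147, 0.521 and 0.326 CPM at day 7 and 58.2, 17.8 and 8.54 CPM at day 28, every day-28 library being more than 10-fold above day 7 and above the controls (1.46, 1.49 and 0.929 CPM; 6.38 ± 0.91, adjusted p = 0.00122). Mmp28, an epithelial protease, rose from 60.5 ± 6.81 to 107 ± 9.40 CPM (0.82 ± 0.10, adjusted p = 0.000686) to the level of controls (93.8 ± 6.0 CPM). Mmp23 fell from 57.2 ± 3.20 to 19 ± 4.95 CPM (−1.59 ± 0.20, adjusted p = 0.000633), and Timp3, a matrix-bound inhibitor, from 397 ± 6.85 to 149 ± 31.3 CPM (−1.42 ± 0.21, adjusted p = 0.00134), ending below its controls.

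Of 30 growth factor and receptor genes tested, 12 fell (40%, against 10.8% of all genes tested), 2 rose (6.67%, against 7.89%) and 16 were not called. The median was −0.453, and the 2 rises were Nrg1 and Tgfa. The count of lower members was 8 without day-7 replicate 2 or day-28 replicate 3. Tgfb3, a transforming growth factor of wound tissue, measured 180.3, 269.7 and 350.4 CPM at day 7 and 47.8, 60.5 and 23.8 CPM at day 28 (−2.60 ± 0.41, adjusted p = 0.00215), all day-28 libraries being below day 7 and overlapping controls. Igf1, an insulin-like growth factor that supports muscle and connective tissue growth, measured 468, 1218 and 897 CPM at day 7 and 135, 342 and 180.0 CPM at day 28 (−1.98 ± 0.38, adjusted p = 0.00549). Tgfb2 stood at −1.47 ± 0.29 and the epidermal growth factor receptor Egfr at −0.54 ± 0.11, the latter from 202 ± 18.6 to 139 ± 4.12 CPM and below all controls (245 ± 24.8 CPM). The epithelial ligand Nrg1 rose from 12.8 ± 3.25 to 29.2 ± 7.86 CPM (1.19 ± 0.27, adjusted p = 0.0110) and Tgfa from 32.0 ± 6.52 to 48.8 ± 1.26 CPM (0.61 ± 0.17, adjusted p = 0.0315); the call of Tgfa was lost without any one library other than day-7 replicate 3, and that of Nrg1 held in each case.

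Of 31 secreted BMP, Wnt and hedgehog genes, 4 rose and 4 fell (median −0.279). Each share was 12.9%, against 7.89% higher and 10.8% lower over all genes tested. Only 1 was higher without day-7 replicate 2 or 3 or day-28 replicate 2, and 2 without day-28 replicate 3. The BMP antagonist Grem1 measured 189, 368 and 245 CPM at day 7 and 60.6, 112 and 41.0 CPM at day 28; every library of day 28 was below day 7 and more than 20-fold above the controls (1.18, 1.57 and 1.86 CPM). Its call (−1.91 ± 0.49, adjusted p = 0.0202) was lost without day-7 replicate 2 or day-28 replicate 1 or 3, with adjusted p up to 0.0753. The other falls were Fstl1 (−1.39 ± 0.26), which binds activin and BMPs, the BMP antagonist Chrd (−1.29 ± 0.27) and Bmp3 (−0.77 ± 0.16). The rises were the ligands Wnt7b (15.9 ± 2.53 to 28.8 ± 5.76 CPM; 0.85 ± 0.18, adjusted p = 0.00790), Bmp7 (0.68 ± 0.20), Bmp5 (0.51 ± 0.14) and Shh (0.83 ± 0.24). The calls of Bmp7, Bmp5 and Shh were each lost without day-7 replicate 2 or 3 or day-28 replicate 2 or 3, and that of Bmp7 also without day-7 replicate 1. Among 23 genes of resting fibroblasts, 4 fell (17.4%, against 10.8% of all genes tested) and 1 rose (4.35%, against 7.89%). The median was −0.30, and 3 rose without day-7 replicate 1. At day 28, 7 of the 23 lay below all controls, 14 overlapped them and 2 lay above. The shares over all genes tested were 19.6% below and 20.9% above. The Wnt inhibitors Sfrp4 (−3.24 ± 0.66) and Sfrp1 (−2.12 ± 0.40), the microfibril protein gene Mfap5 (−1.53 ± 0.31) and the proteoglycan Lum (−0.89 ± 0.19) fell. Sfrp4 held 299 counts in controls, 9842 at day 7 and 1120 at day 28. In the same order, Sfrp1 held 2699, 23221 and 5780 counts and Mfap5 7787, 18588 and 6949. Gelsolin (Gsn), an actin-severing protein, measured 742, 512 and 457 CPM at day 7 and 1963, 1259 and 1053 CPM at day 28. It was higher at day 28 (1.32 ± 0.23, adjusted p = 0.00341) and still below the controls (3306, 3062 and 3745 CPM).

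Genes of the contractile apparatus fell in part. Of 28 smooth muscle genes tested, 12 were lower and 0 higher (median −0.531), and 7 were lower without day-28 replicate 3. Summed levels were 58637, 36685 and 41444 CPM at day 7 and 35419, 26211 and 16899 CPM at day 28, against 42285, 39499.6 and 39591 CPM in controls. At day 28, 16 of the 28 lay below all controls and 1 above, against 19.6% and 20.9% of all genes tested. Smooth muscle actin Acta2 measured 4712, 3079 and 3852 CPM at day 7 and 1927, 1881 and 1099.9 CPM at day 28 (−1.25 ± 0.22, adjusted p = 0.00352), day 7 being above the controls (2163, 2168 and 2384 CPM) and day 28 below them. Desmin (Des), the muscle intermediate filament, measured 5628, 4009 and 5094 CPM at day 7 and 2527, 1633 and 1153 CPM at day 28 (−1.47 ± 0.25, adjusted p = 0.00319). Calponin Cnn1 stood at −1.50 ± 0.29 and the actin crosslinker Actn1 at −1.52 ± 0.24. The myosin heavy chain Myh11 measured 8880.1, 4638 and 4636 CPM at day 7 and 8476, 5418 and 3579.8 CPM at day 28, with overlapping days and both below the controls (11449, 9360.0 and 9459 CPM); the estimate of −0.06 ± 0.31 (adjusted p = 0.928) changed sign to 0.33 without day-7 replicate 1 and 0.20 without day-28 replicate 3. The integrin chain Itga8 measured 107, 186 and 269 CPM at day 7 and 57.8, 69.0 and 19.4 CPM at day 28, at least 2-fold above the controls (6.89, 7.22 and 9.68 CPM) in every day-28 library. Its call (−1.94 ± 0.52, adjusted p = 0.0244) was lost without day-7 replicate 2 or 3 or day-28 replicate 3. Phospholamban (Pln), which restrains the calcium pump of the muscle store, measured 76.0, 33.5 and 27.4 CPM at day 7 and 119.9, 75.6 and 70.2 CPM at day 28 and did not pass the test (0.96 ± 0.33, adjusted p = 0.0665); it was called at 1.54 without day-7 replicate 1 (adjusted p = 0.00253).

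Of 43 receptors and channels of contraction and sensation, 5 rose (11.6%, against 7.89% of all genes tested) and 6 fell (14%, against 10.8%), with a median of −0.0626. Only 1 was higher without day-28 replicate 1 or 3 or day-7 replicate 2, and 2 without day-7 replicate 3. The stretch-gated channels Piezo1 and Piezo2 both fell. Piezo2 measured 148, 198 and 234 CPM at day 7 and 47.0, 59.5 and 25.5 CPM at day 28 (−2.13 ± 0.29, adjusted p = 0.00104), below day 7 and above the controls (16.8, 19.8 and 20.2 CPM) in each day-28 library. Piezo1 fell from 254 ± 21.7 to 133 ± 11.7 CPM (−0.93 ± 0.11, adjusted p = 0.000479) and the prostaglandin receptor Ptger3 from 16.3 ± 7.35 to 4.96 ± 2.0 CPM (−1.72 ± 0.34, adjusted p = 0.00617). The urothelial channel Trpv4 rose from 21.4 ± 3.93 to 35.9 ± 4.26 CPM (0.75 ± 0.16, adjusted p = 0.00756) and stayed below the controls (56.2 ± 3.43 CPM). The adrenergic receptor Adra1d fell from 16.7 ± 2.68 to 4.05 ± 2.72 CPM (−2.05 ± 0.44, adjusted p = 0.00852). The endothelin receptor Ednra (−0.72 ± 0.23, adjusted p = 0.0467) and the adenosine receptor Adora2b (−0.92 ± 0.24, adjusted p = 0.0199) were the other falls. The remaining rises were the tachykinin receptor Tacr2 (16.9 ± 8.01 to 34.0 ± 8.85 CPM; 1.01 ± 0.32, adjusted p = 0.0465), which stayed below the controls (112 ± 7.41 CPM), the purinergic receptor P2rx3 (0.95 ± 0.27, adjusted p = 0.0312), the irritant channel Trpa1 (2.09 ± 0.63, adjusted p = 0.0379) and the prostaglandin receptor Ptger2 (1.26 ± 0.40, adjusted p = 0.0493). Each of these 6 calls was lost without day-7 replicate 2 and also without day-28 replicate 3. Those of Tacr2, P2rx3, Trpa1 and Ptger2 were also lost without day-7 replicate 3 or day-28 replicate 1, those of Ednra, Adora2b and Trpa1 without day-28 replicate 2, and those of Ednra and Ptger2 without day-7 replicate 1. Members that did not pass the test included 3 receptors through which the detrusor is contracted or relaxed. The muscarinic receptor Chrm3 measured 19.4, 8.66 and 10.0 CPM at day 7 and 22, 14.9 and 7.19 CPM at day 28 (0.21 ± 0.39, adjusted p = 0.754), and the purinergic receptor P2rx1 599, 195 and 220.4 CPM at day 7 and 453, 369 and 189 CPM at day 28 (−0.01 ± 0.40, adjusted p = 0.994). Both days overlapped for each. P2rx1 stood at 0.69 without day-7 replicate 1, and Chrm3 at −0.21 without day-28 replicate 1. The relaxing receptor Adrb3 measured 2.38, 0.834 and 0.543 CPM at day 7 and 2.53, 1.40 and 1.80 CPM at day 28, below the controls (6.20, 6.78 and 5.57 CPM) in every library of both days (0.61 ± 0.46, adjusted p = 0.397), with estimates of 0.26 without day-7 replicate 3 and 1.46 without day-7 replicate 1, where it was called (adjusted p = 0.0186).

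Of 19 endothelial genes tested, 9 were lower at day 28, 0 higher and 10 not called (median −0.778). At day 28, 14 of the 19 lay above all controls, against 20.9% of all genes tested. The count of lower members was 3 without day-28 replicate 3 and 5 without day-7 replicate 2 or 3. The apelin receptor Aplnr measured 85.1, 77.9 and 68.7 CPM at day 7 and 23.2, 42.6 and 24.6 CPM at day 28 (−1.36 ± 0.23, adjusted p = 0.00290). VE-cadherin (Cdh5) measured 154, 143 and 159 CPM at day 7 and 72.4, 92.5 and 54.7 CPM at day 28 (−1.05 ± 0.21, adjusted p = 0.00654) against 42.1, 37.7 and 40.0 CPM in controls. The endothelial factor Erg stood at −1.11 ± 0.22, and Egfl7 at −0.71 ± 0.17, a call lost without day-28 replicate 3.

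**Figure D3:**
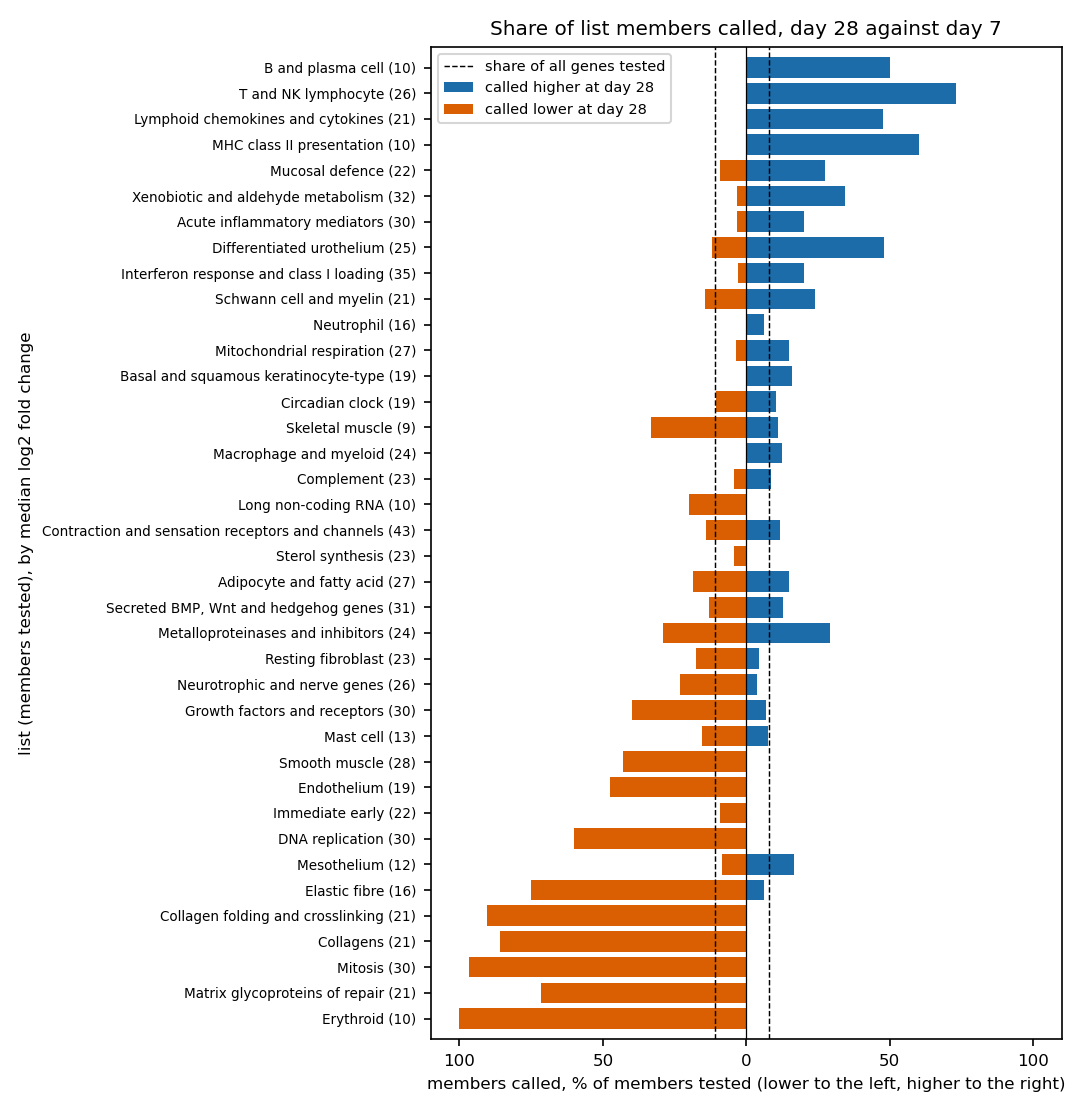
Share of the tested members of each of 38 gene lists called higher (blue, to the right) or lower (orange, to the left) at day 28 against day 7, ordered by median log2 fold change, with the number tested in brackets. Dashed lines mark the shares over all genes tested, 7.89% higher and 10.8% lower; mitosis and collagen lists extend furthest to the left beside the erythroid list, and lymphocyte and class II presentation lists furthest to the right.

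The urothelium showed a rise of many differentiation genes and a fall of a few. Of 25 genes of differentiated urothelium, 12 were higher (48%) and 3 lower (12%), against 7.89% and 10.8% of all genes tested. The median was 0.557. Higher members numbered 6 without day-28 replicate 3 or day-7 replicate 1 and 5 without day-7 replicate 2, and 1 was lower without day-7 replicate 2 or 3. Ehf, an epithelial transcription factor, measured 186, 175 and 195 CPM at day 7 and 382, 359 and 487 CPM at day 28 (1.14 ± 0.12, adjusted p = 0.000256), day 7 being below and day 28 above the controls (274, 269 and 275 CPM). Tjp3, a tight junction scaffold, measured 46.0, 46.1 and 49.0 CPM at day 7 and 126, 126 and 188 CPM at day 28 (1.64 ± 0.18, adjusted p = 0.000362). The nuclear receptor Pparg, which promotes urothelial differentiation, rose from 100.1 ± 15 to 202 ± 19.7 CPM (1.01 ± 0.12, adjusted p = 0.000561) to overlap the controls (194 ± 9.06 CPM). The 3 falls were Krt20, given above, the simple-epithelium keratin Krt18 (367 ± 56.5 to 246 ± 45.5 CPM; −0.58 ± 0.17, adjusted p = 0.0341; not called without day-7 replicate 2 or 3 or day-28 replicate 1 or 2) and the uroplakin Upk2. Upk2, a membrane plaque protein of umbrella cells (chromosome 8, 48772906 to 48774898), measured 567, 707 and 841 CPM at day 7 and 459, 492 and 359 CPM at day 28. All day-28 libraries lay below day 7, and both days below the controls (925, 1051 and 964 CPM). Its call (−0.69 ± 0.18, adjusted p = 0.0215) was lost without day-7 replicate 2 or 3 or day-28 replicate 3.

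Of 19 basal and squamous keratinocyte-type genes, 3 rose (15.8%, against 7.89% of all genes tested) and 0 fell (median 0.202). Only 1 rose without any one of the day-7 replicates. Tp63, the master factor of basal cells, measured 78.8, 98.7 and 94.9 CPM at day 7 and 186, 193 and 222 CPM at day 28 (1.14 ± 0.14, adjusted p = 0.000567), a rise from below the controls to overlap them (194, 191 and 173 CPM). Involucrin (Ivl), of the cornified envelope, measured 3.70, 9.11 and 10.4 CPM at day 7 and 151, 35.8 and 90.6 CPM at day 28; every day-28 library exceeded the other 6. Its call (3.58 ± 0.93, adjusted p = 0.0208) was lost without any one day-7 replicate or day-28 replicate 1. Krt1 reached at most 1.25 CPM (2.08 ± 0.59, adjusted p = 0.0306), and its call was lost without any one day-7 replicate or day-28 replicate 2 or 3. The basal keratin Krt5 measured 69.7, 212 and 124 CPM at day 7 and 234, 388 and 418 CPM at day 28, without overlap, and did not pass the test (1.36 ± 0.49, adjusted p = 0.0739). Krt13, of intermediate squamous layers, stayed under 1.4 CPM in all 6 libraries (−1.06 ± 0.54, adjusted p = 0.194), its estimate being −0.46 without day-7 replicate 2.

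Of 22 mucosal defence genes tested, 6 rose (27.3%) and 2 fell (9.09%), against 7.89% and 10.8% of all genes tested. The median was 0.881. Without day-28 replicate 1, 11 were higher. Pigr, the receptor that carries polymeric antibodies across epithelia (chromosome 13, 47564176 to 47592093), measured 115, 69.8 and 112 CPM at day 7 and 509, 776 and 2539 CPM at day 28. Day 7 overlapped the controls (70.3, 106 and 83.4 CPM) and every day-28 library was more than 4-fold above the highest of them (3.69 ± 0.51, adjusted p = 0.00107). Muc20, a membrane mucin, measured 0.550, 1.39 and 1.34 CPM at day 7 and 12.5, 21.9 and 112 CPM at day 28 (5.47 ± 0.95, adjusted p = 0.00330). On the deposited TPM scale, which divides by gene length, mean levels at days 7 and 28 were 47.7 and 684 for Pigr, 0.849 and 122 for Duox2, 0.139 and 98.7 for Muc4 and 0.588 and 958 for Ly6al. Per length, Ly6al and Pigr were thus the most abundant of these 4 at day 28. The falls were the antimicrobial lectin Reg3g (at most 0.0642 CPM at day 28) and the diamine oxidase Aoc1 (16.6 ± 8.94 to 3.80 ± 1.19 CPM; −2.13 ± 0.66, adjusted p = 0.0430), a call lost without any one library other than day-7 replicate 3.

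Of 32 xenobiotic and aldehyde metabolism genes, 11 rose (34.4%) and 1 fell (3.12%), against 7.89% and 10.8% of all genes tested. The median was 0.655. Cyp1a1, the monooxygenase induced through the aryl hydrocarbon receptor (chromosome 8, 62472087 to 62478122), measured 0.733, 0.209 and 0.217 CPM at day 7 and 4.97, 63.8 and 23.1 CPM at day 28. Every day-7 library was under 1 CPM, and day 28 overlapped the controls (84.9, 90.4 and 19.2 CPM; 6.30 ± 1.14, adjusted p = 0.00387). The glutathione transferases Gsta4 (7.54 ± 2.63 to 34.8 ± 5.45 CPM; 2.21 ± 0.21, adjusted p = 0.000222) and Gstm1 (278 ± 132 to 859.7 ± 79.1 CPM; 1.63 ± 0.26, adjusted p = 0.00206) ended above the controls. Gclc, which limits glutathione synthesis, rose from 165 ± 6.39 to 253 ± 38.2 CPM (0.62 ± 0.11, adjusted p = 0.00345). Ugt1a6 rose by 1.13 ± 0.12, but the Ugt1a genes share exons on one strand and cannot be separated. The fall was that of the retinoic acid-making enzyme Aldh1a2 (−1.24 ± 0.37; adjusted p = 0.0363), which was the only lower member and was not called without day-28 replicate 1, 2 or 3 or day-7 replicate 2 or 3; 3 members were lower without day-7 replicate 1.

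**Figure D4:**
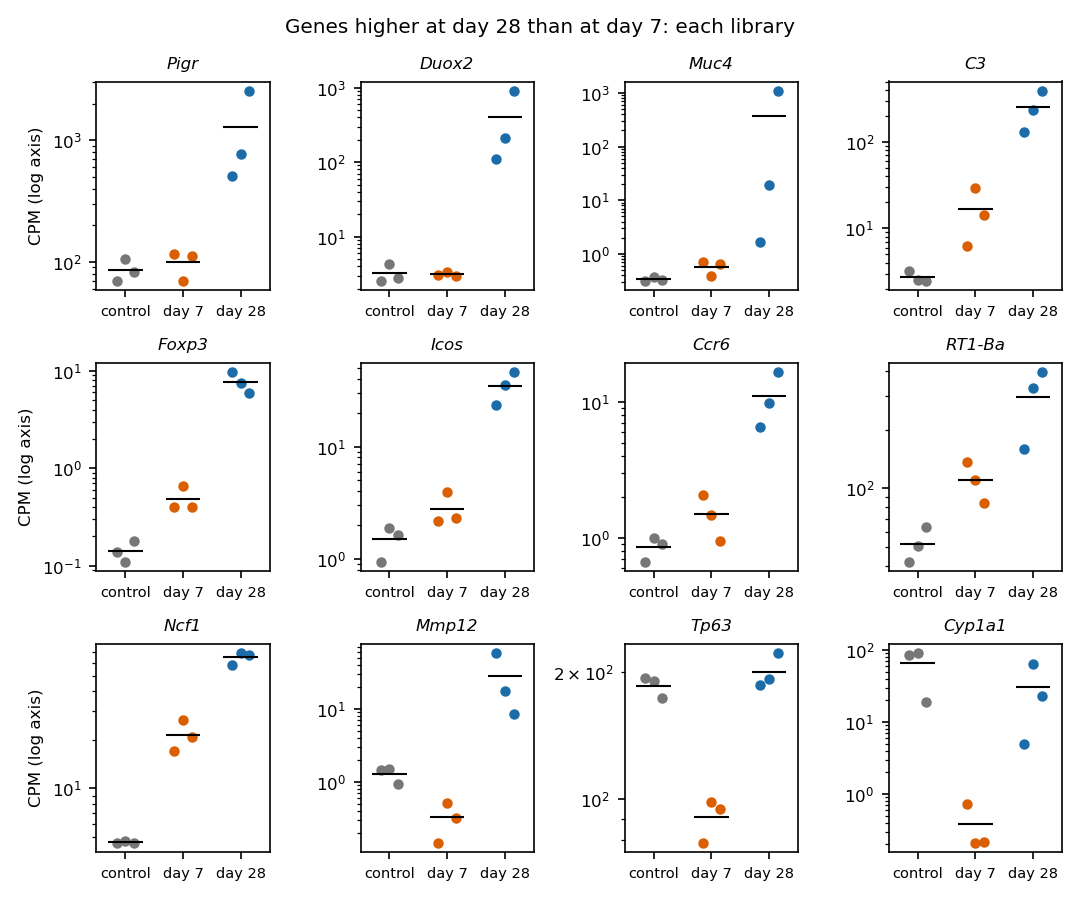
CPM on a log axis in each of the 3 libraries of control (grey), day 7 (orange) and day 28 (blue), with the group mean as a black line, for 12 genes higher at day 28 than at day 7. The day-28 points lie above the day-7 points in each panel; for Pigr and Duox2 the day-7 points overlap the controls, and for Tp63 and Cyp1a1 the day-28 points do.

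Lymphocyte genes rose together. Of 26 T and NK lymphocyte genes tested, 19 were higher and 0 lower (median 1.96), with 14 to 20 higher when any 1 library was left out. Summed levels were 244, 174 and 132 CPM at day 7 and 326, 475 and 484 CPM at day 28, against 95.9 to 104 CPM in controls. At day 28, 24 of the 26 lay above all controls, against 20.9% of all genes tested. Icos, a costimulatory receptor of activated T cells (chromosome 9, 67748157 to 67786808), measured 2.16, 3.93 and 2.32 CPM at day 7 and 23.6, 35.0 and 46.2 CPM at day 28 (3.64 ± 0.45, adjusted p = 0.000636). Zap70, the kinase of the T cell receptor, measured 1.58, 0.904 and 0.652 CPM at day 7 and 5.30, 10.3 and 15 CPM at day 28 (3.29 ± 0.41, adjusted p = 0.000681). Ctla4, an inhibitory receptor, measured 0.623, 0.626 and 0.253 CPM at day 7 and 3.10, 4.06 and 7.58 CPM at day 28 (3.28 ± 0.45, adjusted p = 0.00104). For these 3 genes every day-28 library was above every library of day 7 and of controls. Foxp3, the factor of regulatory T cells (chromosome X, 15753175 to 15768648), measured 0.403, 0.661 and 0.398 CPM at day 7 and 9.74, 7.46 and 5.94 CPM at day 28 (3.97 ± 0.41, adjusted p = 0.000256), but the antisense gene Ccdc22, with more counts, overlaps it.

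Among 10 B and plasma cell genes tested, of 20 listed, 5 were higher and 0 lower (median 1.96). The count was 3 without day-28 replicate 3 and 2 without day-7 replicate 2 or 3. The B cell kinase Blk measured 0.440, 0.313 and 0.181 CPM at day 7 and 1.53, 4.66 and 3.05 CPM at day 28 (3.29 ± 0.53, adjusted p = 0.00228). Pou2af1, a B cell coactivator, measured 0.257, 0.0695 and 0.145 CPM at day 7 and 0.534, 1.30 and 10.5 CPM at day 28 (4.68 ± 1.01, adjusted p = 0.00916), its value being 2.52 without day-28 replicate 3. The calls of the B cell receptor Tnfrsf13b (3.13 ± 0.79, adjusted p = 0.0185) and of Fcrla (2.70 ± 0.69, adjusted p = 0.0196), a B cell Fc receptor-like protein, were lost without day-7 replicate 2 or 3, and without day-28 replicate 3 and replicate 2 respectively. Tnfrsf13b then stood at 1.93 without day-28 replicate 3. Over the 3 day-7 libraries Blk, Pou2af1 and Tnfrsf13b held 26, 13 and 10 counts, and at day 28 they held 281, 381 and 100. With so few counts at day 7 they could hardly be called lower, so the count and median of this list lean to rises.

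Of 21 lymphoid chemokine and cytokine genes, 10 rose and 0 fell (median 1.27), with 9 to 11 under each left-out library. Ccr6, the receptor for CCL20 on lymphocytes and dendritic cells, measured 2.05, 1.46 and 0.941 CPM at day 7 and 6.47, 9.82 and 16.6 CPM at day 28 (2.88 ± 0.37, adjusted p = 0.000754). Tnfsf13, a survival factor for plasma cells, measured 12.5, 11.1 and 8.25 CPM at day 7 and 32.1, 34.8 and 38.9 CPM at day 28 (1.73 ± 0.20, adjusted p = 0.000428). Lymphotoxin beta (Ltb), which organises lymphoid tissue, held 2 counts at day 7 and 281 at day 28, 129 times as much (95% interval 35.4 to 1070). With 2 counts at day 7, Ltb could hardly be called lower. Cxcl13, which draws B cells into follicles, measured 7.52, 3.48 and 5.0 CPM at day 7 and 3.84, 10.7 and 81.6 CPM at day 28. Its days overlapped, it did not pass the test (2.59 ± 0.87, adjusted p = 0.0598), and its value was 0.45 without day-28 replicate 3; it was called without day-28 replicate 1 (3.11) or replicate 2.

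Of 10 MHC class II presentation genes, 6 rose and 0 fell (median 1.11), and 3 rose without day-7 replicate 2. At day 28, 9 of the 10 lay above all controls, against 20.9% of all genes tested. RT1-Ba, a class II chain, measured 137, 111 and 84.3 CPM at day 7 and 159.6, 328 and 397 CPM at day 28 (1.41 ± 0.29, adjusted p = 0.00735), and RT1-Db1 53.3, 40.2 and 32.1 CPM at day 7 and 63.7, 107 and 124 CPM at day 28 (1.23 ± 0.23, adjusted p = 0.00497); RT1 genes have near-identical copies and are uncertain. Ciita, the master regulator of class II genes, measured 22.2, 18.4 and 13.4 CPM at day 7 and 28.8, 51.2 and 61.2 CPM at day 28 (1.39 ± 0.30, adjusted p = 0.00857). The invariant chain Cd74 measured 1002, 667 and 578 CPM at day 7 and 986, 1683 and 1988 CPM at day 28; the days overlapped, and its call (1.05 ± 0.24, adjusted p = 0.0127) was lost without day-7 replicate 2.

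Of 35 interferon response and class I loading genes, 7 rose (20%) and 1 fell (2.86%), with a median of 0.489. Over all genes tested the shares were 7.89% and 10.8%. Higher members numbered 12 without day-28 replicate 1, 4 without day-28 replicate 3 and 3 without day-7 replicate 2 or 3. Ido1, which breaks down tryptophan, held 4 counts at day 7 and 403 at day 28, 92.5 times as much (95% interval 35.8 to 341). With 4 counts at day 7, Ido1 could hardly be called lower. The factor Irf1 measured 22.9, 19.5 and 16.5 CPM at day 7 and 32.7, 43.2 and 103 CPM at day 28 (1.60 ± 0.35, adjusted p = 0.00900), its value being 0.95 without day-28 replicate 3, and Irf8, a factor of myeloid and B cells, 39.6, 32.1 and 24.4 CPM at day 7 and 40.6, 75.0 and 95.5 CPM at day 28 (1.14 ± 0.26, adjusted p = 0.0110). Cxcl11 lies antisense to the more abundant Art3 and held 9 and 320 counts; its call (4.95 ± 1.17, adjusted p = 0.0140) was lost without day-7 replicate 2 or 3 or day-28 replicate 3, where it stood at 2.59. The fall was that of Ifi27 (165 ± 41.5 to 70.8 ± 7.82 CPM; −1.22 ± 0.30, adjusted p = 0.0166), which was not called without day-28 replicate 1 or 3.

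**Figure D5:**
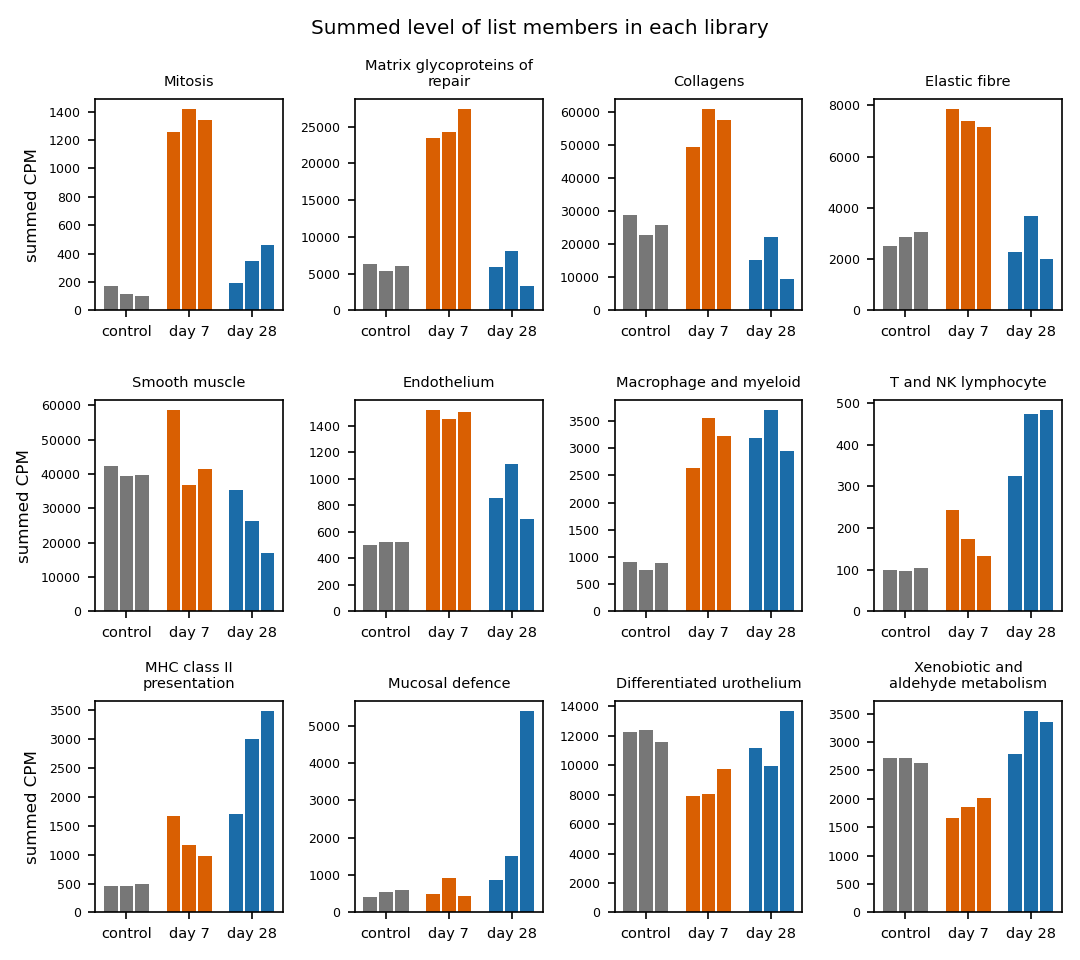
Summed CPM of the members of 12 gene lists in each library of control (grey), day 7 (orange) and day 28 (blue), with bars from 0 and replicates 1 to 3 from left to right. Mitosis, matrix and elastic fibre sums are higher at day 7 than at day 28, the lymphocyte and xenobiotic sums are highest at day 28, macrophage sums are alike on both days and above the controls, and the mucosal defence sum is highest in day-28 replicate 3.

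Of 24 macrophage and myeloid genes tested, 3 rose (12.5%, against 7.89% of all genes tested) and 0 fell (median 0.0514). At day 28, 21 of the 24 lay above all controls, against 20.9% of all genes tested. Only 1 rose without day-7 replicate 2 or day-28 replicate 2 or 3, and 1 fell without day-7 replicate 1. Summed levels were 2641, 3548 and 3225 CPM at day 7 and 3189, 3701 and 2955 CPM at day 28, against 758 to 904 CPM in controls. Cd68, of macrophage lysosomes, measured 85.1, 94.1 and 90.2 CPM at day 7 and 134, 109 and 89.0 CPM at day 28 (0.30 ± 0.26, adjusted p = 0.464), the days overlapping and both above the controls (23.5, 17.7 and 21.6 CPM); its value was 0.13 without day-28 replicate 1. Laptm5, of leukocyte lysosomes, rose from 74.1 ± 5.44 to 124 ± 12.6 CPM (0.75 ± 0.12, adjusted p = 0.00200). The calls of Adgre1, the F4/80 antigen (58.0 ± 12.5 to 143 ± 34.8 CPM; 1.30 ± 0.39, adjusted p = 0.0379), and Cd86, a costimulatory ligand (12.9 ± 3.54 to 20.9 ± 3.35 CPM; 0.70 ± 0.19, adjusted p = 0.0257), were each lost without day-7 replicate 2 or day-28 replicate 2 or 3. That of Adgre1 was also lost without day-7 replicate 3 or day-28 replicate 1, and that of Cd86 without day-7 replicate 1. The scavenger receptor Msr1 measured 24.3, 62.5 and 62.8 CPM at day 7 and 20.7, 24.6 and 25.6 CPM at day 28 and did not pass the test (−1.08 ± 0.35, adjusted p = 0.0533), though it did without day-7 replicate 1 (−1.41).

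Among 16 neutrophil genes 1 rose (6.25%, against 7.89% of all genes tested) and 0 fell (median 0.272). This was Ncf1, a subunit of the phagocyte oxidase that other leukocytes also carry, at 17.0, 26.5 and 20.9 CPM at day 7 and 58.0, 69.1 and 67.5 CPM at day 28 (1.60 ± 0.26, adjusted p = 0.00221), with controls between 4.59 and 4.70 CPM. All 16 neutrophil genes lay above all controls at day 7, as did 23.6% of all genes tested. At day 28, 13 of the 16 did, against 20.9% of all genes tested. Of 13 mast cell genes, 2 fell (15.4%, against 10.8%) and 1 rose (7.69%, against 7.89%), with a median of −0.497. Only 1 fell without any one library other than day-7 replicate 3. The chymase Cma1, whose family has near-identical copies, fell from 30.4 ± 16.3 to 11.4 ± 2.32 CPM (−1.42 ± 0.33, adjusted p = 0.0127), with a value of −0.92 without day-7 replicate 1. The call of the carboxypeptidase Cpa3 (−1.26 ± 0.39, adjusted p = 0.0451) was lost without day-7 replicate 1 or 2 or any one day-28 library. Prostaglandin D synthase Hpgds rose from 4.50 ± 1.03 to 11.9 ± 2.19 CPM (1.41 ± 0.24, adjusted p = 0.00293).

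Of 30 acute inflammatory mediators, 6 rose (20%, against 7.89% of all genes tested) and 1 fell (3.33%, against 10.8%), with a median of 0.617. Only 3 rose without day-7 replicate 2 or day-28 replicate 3, and 3 fell without day-7 replicate 1. Csf3, the granulocyte growth factor, measured 0.0733, 0.104 and 0.181 CPM at day 7 and 0.901, 3.66 and 2.54 CPM at day 28 (4.26 ± 0.89, adjusted p = 0.00783). Casp1, the inflammasome protease, measured 12.7, 17.4 and 14.5 CPM at day 7 and 20.7, 30.4 and 51.4 CPM at day 28 (1.20 ± 0.27, adjusted p = 0.0116), with a value of 0.78 without day-28 replicate 3. The cyclooxygenase Ptgs2 measured 19.5, 65.0 and 155 CPM at day 7 and 14.6, 18.1 and 13.9 CPM at day 28 and was the member that fell (−2.36 ± 0.54, adjusted p = 0.0113); it stood at −1.44 without day-7 replicate 3. Il6 measured 0.0733, 1.74 and 10.5 CPM at day 7 and 0.534, 1.86 and 0.289 CPM at day 28 and did not pass the test (−2.20 ± 1.40, adjusted p = 0.307), its value being −0.02 without day-7 replicate 3, and a same-strand gene with far more counts, Kmt2c, overlaps it. Of 23 complement genes, 2 rose (8.7%, against 7.89% of all genes tested) and 1 fell (4.35%, against 10.8%), with a median of −0.0103. Without day-28 replicate 2 or day-7 replicate 3, 2 fell. C3, the central component (chromosome 9, 9721137 to 9747084), measured 6.27, 29.2 and 14.4 CPM at day 7 and 129, 234 and 389 CPM at day 28. Each step from controls (3.24, 2.55 and 2.47 CPM) to day 7 and to day 28 was free of overlap (3.91 ± 0.68, adjusted p = 0.00320 between the days). Clusterin (Clu), a regulator and chaperone, rose from 469 ± 116 to 1065 ± 291 CPM (1.18 ± 0.26, adjusted p = 0.00926), and the lectin pathway protease Masp1 fell from 36.5 ± 5.12 to 10.8 ± 4.87 CPM (−1.76 ± 0.37, adjusted p = 0.00818).

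Of 26 neurotrophic and nerve genes, 6 fell (23.1%, against 10.8% of all genes tested) and 1 rose (3.85%, against 7.89%), with a median of −0.389. The count of lower members was 2 without day-28 replicate 3 or day-7 replicate 3. Higher members numbered 0 without day-28 replicate 1 or day-7 replicate 2 or 3, and 3 without day-7 replicate 1. Bdnf, a neurotrophin of sensory nerves, measured 6.45, 16.7 and 25.5 CPM at day 7 and 4.47, 4.93 and 1.54 CPM at day 28, the day-28 libraries lying between the controls (0.209, 0.401 and 0.322 CPM) and day 7. Its call (−2.15 ± 0.57, adjusted p = 0.0219) was lost without day-7 replicate 2 or 3 or day-28 replicate 3. Tubb3, a neuronal tubulin, fell from 17.6 ± 11 to 2.80 ± 1.00 CPM (−2.65 ± 0.57, adjusted p = 0.00919). It held 49 counts in controls, 1479 at day 7 and 255 at day 28, so the fall was from a day-7 level far above the controls. Nrtn, a ligand of the GDNF family, fell from 6.44 ± 2.05 to 3.44 ± 0.639 CPM (−0.90 ± 0.25, adjusted p = 0.0257), a call lost without day-7 replicate 1 or 3 or day-28 replicate 1 or 2. Ntf3 was the member that rose (1.77 ± 0.50, adjusted p = 0.0308), a call lost without day-28 replicate 1 or day-7 replicate 2 or 3. Of 21 Schwann cell and myelin genes, 5 rose (23.8%) and 3 fell (14.3%), with a median of 0.35; 3 rose without day-7 replicate 2 or 3, and 1 fell without day-7 replicate 3 or day-28 replicate 3. Myelin basic protein Mbp measured 17.6, 20.4 and 20.1 CPM at day 7 and 31.5, 32.9 and 31.7 CPM at day 28 (0.73 ± 0.11, adjusted p = 0.00146). Mal (384 ± 34.6 to 881 ± 176 CPM; 1.20 ± 0.17, adjusted p = 0.00122) is also a gene of the apical urothelium. Ncmap rose from 0.567 ± 0.288 to 3.70 ± 0.667 CPM (2.70 ± 0.59, adjusted p = 0.00977), and Drp2, of the myelin sheath's outer face, fell from 9.24 ± 0.788 to 5.56 ± 0.925 CPM (−0.73 ± 0.16, adjusted p = 0.00872).

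Of 27 mitochondrial respiration genes encoded in the nucleus, 4 rose (14.8%, against 7.89% of all genes tested) and 1 fell (median 0.224); 2 rose without day-28 replicate 3 and 1 without day-7 replicate 2, and 0 fell without day-7 replicate 2 or 3. Cox8a, a subunit of cytochrome oxidase, rose from 51.9 ± 3.75 to 75.0 ± 9.74 CPM (0.53 ± 0.11, adjusted p = 0.00913). Of 27 adipocyte and fatty acid genes, 4 rose (14.8%) and 5 fell (18.5%, against 10.8%), with a median of −0.258. Without day-28 replicate 1, 1 fell; 2 fell without day-28 replicate 3 or day-7 replicate 1, and 3 without day-7 replicate 2 or 3. The higher count was 2 without day-28 replicate 3 or day-7 replicate 2. The lipase Lipe measured 49.5, 40.7 and 38.2 CPM at day 7 and 15.4, 24.3 and 18.2 CPM at day 28 (−1.15 ± 0.17, adjusted p = 0.00167). Cpt1a, which admits fatty acids to mitochondria, rose from 336 ± 16.5 to 497 ± 65.5 CPM (0.57 ± 0.12, adjusted p = 0.00898), and the dehydrogenase Acadl of fatty acid breakdown from 121 ± 7.03 to 185 ± 30.5 CPM (0.61 ± 0.12, adjusted p = 0.00550). The desaturase Scd measured 30.4, 16.6 and 22.5 CPM at day 7 and 3.84, 6.16 and 9.47 CPM at day 28, a fall (−1.83 ± 0.47, adjusted p = 0.0202) lost without day-7 replicate 1 or day-28 replicate 1 or 2.

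Of 22 immediate early genes, 2 fell (9.09%, against 10.8% of all genes tested) and 0 rose (median −0.786). Only 1 fell without day-28 replicate 1 or 3 or day-7 replicate 3, and 4 without day-7 replicate 1. Klf2 fell from 58.4 ± 10.4 to 19 ± 5.56 CPM (−1.62 ± 0.24, adjusted p = 0.00136), and the call of Egr2 (−2.31 ± 0.58, adjusted p = 0.0185) was lost without day-7 replicate 3 or day-28 replicate 1 or 3. Of 19 clock genes, 2 rose, Hlf among them, and 2 fell (Nfil3 and Per1), with a median of 0.197. Each share was 10.5%, against 7.89% higher and 10.8% lower over all genes tested. Without day-28 replicate 1 or 3 or day-7 replicate 2 or 3 only 1 rose, and without any one library other than day-7 replicate 1 none fell. The call of Hlf (1.33 ± 0.38, adjusted p = 0.0322) was lost without day-7 replicate 2 or 3 or any one day-28 library.

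Of 12 mesothelial genes, 2 rose (C3 and Krt19, which other cells also express) and 1 fell (Wt1), with a median of −1.22. The shares were 16.7% higher and 8.33% lower, against 7.89% and 10.8% of all genes tested. Higher members numbered 1 without day-28 replicate 3 or day-7 replicate 1 or 2. Lower members numbered 0 without day-28 replicate 3 or day-7 replicate 2 or 3, and 2 without day-7 replicate 1. Wt1, a factor of mesothelium, measured 28.1, 65.3 and 40.3 CPM at day 7 and 6.04, 15.1 and 4.49 CPM at day 28; its call (−2.39 ± 0.66, adjusted p = 0.0278) was lost without day-7 replicate 2 or 3 or day-28 replicate 1 or 3. Of 9 skeletal muscle genes, 3 fell (33.3%, against 10.8% of all genes tested) and 1 rose (11.1%, against 7.89%), with a median of 0.113. The skeletal actin Acta1 measured 1612, 977 and 914 CPM at day 7 and 169, 223 and 70.8 CPM at day 28 (−2.92 ± 0.45, adjusted p = 0.00183), overlapping the controls at day 28. Myh1 (−3.0 ± 0.66, adjusted p = 0.00973) and Myh2 (−2.70 ± 0.75, adjusted p = 0.0283), skeletal myosin heavy chains, fell to at most 0.482 and 4.86 CPM. The call of Myh2 was lost without any one day-7 library or day-28 replicate 1 or 3. The rise of Tnni2 (0.81 ± 0.22) was not called without day-7 replicate 1 or 2 or day-28 replicate 1 or 3, and the antisense gene Cttn, with more counts, overlaps it. The skeletal muscle genes Ckm, Atp2a1 and Actn3 did not pass the test.

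The study was designed around long non-coding RNA. Of 1573 long non-coding RNA genes tested, 80 were higher (5.09%) and 52 lower (3.31%) at day 28, both below the shares of all genes tested (7.89% and 10.8%). From a list of 26 known ones, 10 were in the table and tested, of which 2 fell and 0 rose (median −0.0254). The maternally expressed imprinted gene Meg3, listed in the files as RGD1566401 (chromosome 6, 133658937 to 133691130), measured 66.3, 70.3 and 85.8 CPM at day 7 and 8.74, 10.6 and 6.61 CPM at day 28. Every day-28 library was below every control (16.5, 18.6 and 20.04 CPM) and at least 6-fold below day 7 (−3.10 ± 0.24, adjusted p = 0.000116). The imprinted H19 (chromosome 1, 215744404 to 215747080) measured 79.1, 70.7 and 88.4 CPM at day 7 and 14.1, 25.1 and 9.21 CPM at day 28, below day 7 and above the controls (1.46, 5.03 and 3.22 CPM) in each day-28 library (−2.30 ± 0.42, adjusted p = 0.00437); a same-strand gene, Cttn, overlaps it in the files. Miat held 35 counts at day 7 and 4 at day 28, day 7 being 9.53 times day 28 (95% interval 3.41 to 36.9), and did not pass the test (−3.12 ± 1.06, adjusted p = 0.0620). Tug1, a broadly expressed RNA, measured 53.0, 66.1 and 67.5 CPM at day 7 and 71.2, 72.7 and 70.1 CPM at day 28 and did not pass either (0.20 ± 0.10, adjusted p = 0.216). A same-strand gene with more counts overlaps Tug1 and makes its counts uncertain.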

How the data were processed

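Bladder RNA libraries, 3 of day 7 and 3 of day 28, were compared, with 3 control libraries as a reference level; groups came from the sample titles. The authors deposited whole-number read counts per gene without normalization, and TPM values per gene, per the file headers; TPM served only to compare levels between genes. Per the submitters' processing notes the build was rn6 and the tools included HTSeq 0.11.2, HISAT2 2.1.0 and bcl2fastq, with no role for each. The sources used here do not say if reads were assigned by strand.

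Counts went into edgeR 4.0.16 under R 4.3.3 (filterByExpr, minimum count 10, minimum total 15; TMM; 1 quasi-likelihood model over all 12 libraries, 8 residual degrees of freedom, contrast day 28 minus day 7). Benjamini-Hochberg adjustment ran over all 17687 genes tested, and every adjusted p in the text is from that test; called means under 0.05. Changes are log2 fold changes ± SE, with SE = |change| / √F of its test. CPM use TMM-scaled library sizes. Counting intervals are exact 95% intervals of the ratio of summed counts. The script was tested on simulated data. DESeq2 1.42.0 served as an alternative, beside other size factors, filters, a model of 2 days, a replicate block and each library left out. limma 3.58.1 was loaded with edgeR, data.table was version 1.17.8, pandas 2.3.3, Python 3.11.15 and matplotlib 3.10.9.

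The comparison and the 38 gene lists were chosen with earlier results of these data known. Named are the 12 largest rises and falls (a symbol, adjusted p under 0.05, at least 2-fold, a mean of at least 5 CPM over the 6 libraries, no overlap between days, not Y-linked), up to 4 members per list with the smallest p, and 25 genes by name. Members outside this rule are named where 5 or fewer moved in a direction or as an exception, and were chosen after their values were seen. Lists are described by counts and medians beside those of all genes, without a set test. Members with almost no counts at day 7 passed the filter through other libraries and could hardly be called lower. The reverse holds for members with almost no counts at day 28. Some genes that the rule names are not reported here. Tables of transcripts and of the authors' own comparisons were not used here.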

Additional observations from a re-analysis of the deposited data

How the results depend on the processing

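Against 3310 genes called (1395 higher, 1915 lower), 1591 (590 higher, 1001 lower) also changed at least 2-fold. With each library left out in turn, 1954 to 3275 genes were called, 742 to 1373 higher and 1212 to 1902 lower, and all 3310 kept their direction in each of those 6 fits. The counts of calls without day-7 replicate 2, without day-7 replicate 3 and without day-28 replicate 3 differed from 3310 by over 1.5 times. Other alternatives stayed within 1.5 times: 3319 with RLE size factors, 3060 with no filter, 2792 at a mean of 5 CPM, 2260 in a model of the 2 days alone and 4230 with DESeq2. The share of calls that were higher was 37.1% to 44.6% over all settings. With the replicate number as a block, 3463 genes were called (1481 higher, 1982 lower). Same-numbered libraries correlated at 0.0643, 0.0545 and 0.11 in their deviations from the group means, so they were taken to share only a number, although each correlated best with its own number, a hint from the data and not the design. Of the 184 named genes, 12 to 28 lost their call with 1 library left out. Under the block the calls of Add2, Adgre1, Clca1 and Cpa3 were lost, and Krt5 was called (adjusted p = 0.00338). Cxcl13 and Msr1, not called in edgeR's fit of all 12 libraries, were called by DESeq2 and with no filter. In the model of the 2 days 22 were lost, among them Muc4, Upk2, Bdnf, Ptgs2, Casp1, Irf8, Cd74, Cd86, Pou2af1, Tnfrsf13b, Cxcl11, Cma1, Cpa3, Nrtn, Krt1, Egfl7, Hemgn, Add2 and Tnni2. Direction changed for 3 genes that were not called. P2rx1 stood at 0.0025 with RLE size factors, 0.0025 with DESeq2, 0.0594 under the replicate block and −0.29 to 0.69 with 1 library left out (positive without day-7 replicate 1 or day-28 replicate 3). Myh11 ranged from −0.44 to 0.33 (positive without the same libraries) and Chrm3 from −0.21 (without day-28 replicate 1) to 0.65. The cause was not tested. Depth limits genes with few counts on 1 day, such as Trh, Ltb and Ido1, whose ratios have wide counting intervals.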
